A study of Mus musculus with 8 samples.

Results

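Metallothioneins and zinc transporters were followed in mouse liver as 8 genes, Mt1, Mt2, Mtf1, Slc39a14, Slc39a4, Slc39a8, Slc30a1 and Slc30a10, taken by gene symbol from a table of 15346 tested genes. They were read by 23 of the 45018 features of each array (11 for Mt1, 1 each for Mt2 and Slc39a4, 2 for each of the others). All 23 had a value on all 8 arrays, so all 8 genes were tested. The arrays were 2-colour Agilent arrays, 2 per group. The female IL1-beta and male IL1-beta groups were C3H/HeN mice of 8 weeks given 25 µg/kg recombinant murine IL1-beta into the peritoneum on alternate days for 2 weeks. The female control and male control groups were mice of the same strain and age given vehicle on the same schedule. In every group the liver was taken 1 h after the last injection. By the labels, Cy5 marked liver RNA and Cy3 marked a reference pool made from 11 mouse cell lines. Arrays are called biological replicates without further detail. A p-value rests on the spread between the 2 arrays of a group, shared over all 4 groups, and this spread may be technical. Values are log2 ratios on the reading that the deposited ratios are log10, as Agilent software writes them. The base is not stated, and if it were 2 every log2 value and SE here would be 3.32 times too large, with the p-values unchanged.

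Metallothioneins are small cysteine-rich proteins that bind zinc and copper in the cytosol. Their genes are switched on by metals through MTF-1, the zinc-sensing transcription factor encoded by Mtf1, and also by glucocorticoids and inflammatory cytokines. ZIP proteins (the Slc39a genes) carry zinc and some other divalent metals into the cytosol, and ZnT proteins (the Slc30a genes) carry metals out of it. In inflammation the liver takes up zinc from plasma, a process linked to the hepatocyte importer ZIP14 and to metallothionein.

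Mt1 and Mt2 lie side by side on chromosome 8 (GRCm38.p6, RefSeq), with Mt2 at 94172618 to 94173567 and Mt1 at 94178883 to 94180327, 5315 bases apart. RefSeq promoter windows were found for 6 of the 8 genes. The 250 bases before a RefSeq start of Mt1 and of Mt2 are shown because these were the 2 members that passed together. Capitals mark matches to TGCNCNC on either strand, where N is any base. This is a loose form of the core of the metal response element to which MTF-1 binds. A match therefore need not be such an element. Both windows are on the plus strand, chr8:94178839-94179088 for Mt1 and chr8:94172368-94172617 for Mt2.
Mt1: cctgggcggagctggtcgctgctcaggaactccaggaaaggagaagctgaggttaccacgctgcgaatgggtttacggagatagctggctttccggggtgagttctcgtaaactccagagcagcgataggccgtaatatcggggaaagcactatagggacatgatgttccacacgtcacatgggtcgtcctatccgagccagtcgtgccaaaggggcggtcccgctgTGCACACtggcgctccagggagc
Mt2: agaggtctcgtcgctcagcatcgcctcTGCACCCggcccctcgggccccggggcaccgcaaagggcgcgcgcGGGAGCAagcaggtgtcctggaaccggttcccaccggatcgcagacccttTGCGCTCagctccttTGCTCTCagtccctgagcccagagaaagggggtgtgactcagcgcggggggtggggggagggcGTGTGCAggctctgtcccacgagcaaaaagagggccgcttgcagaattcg
The Mt2 window held 5 matches, none overlapping another, and 0.344% of all 32851 promoter windows of this length held at least as many. The Mt1 window held 1 match, and 44.4% of the windows held at least 1. The Mt1 window is set by a RefSeq start that lies inside the annotated gene span, so most of this window is inside that span. Bases after that start were not searched. The 1 match of Mt1 is therefore not a count for its whole promoter and is not comparable with the 5 of Mt2. Slc30a10 held 3 matches, of which 2 overlap each other on opposite strands (4.65% of windows held at least as many), Slc30a1 held 1, Slc39a8 held 1 at 1 of its 2 starts and Mtf1 held 0.

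**Figure D1:**
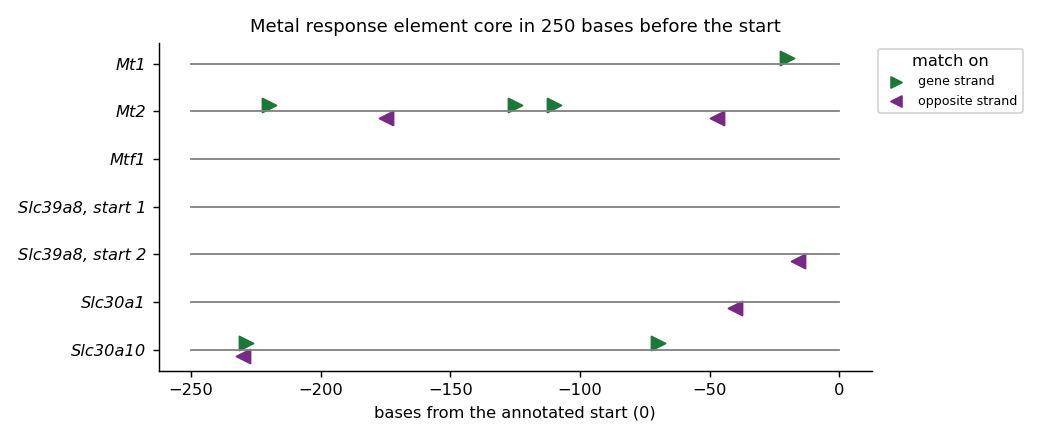
Matches to TGCNCNC in the 250 bases before each annotated start (x axis, bases from the start; 1 line per RefSeq start). Arrows give the strand of a match. Mt2 holds 5 matches, more than any other member with a window. The Mt1 window lies mostly inside the annotated gene, so its count is not comparable.

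The arrays labelled control did not carry the profile of liver over a pool. Medians of the hepatocyte list over 10 measured genes ran from 5.81 to 6.12 (log2 ratio) under IL1-beta, against -0.30 to 0.31 for the control labels. Xist, which acts in X inactivation and is made in female cells, stood at 5.40 and 5.78 where the label was male control and at -4.94 and -4.57 where it was female control. Across all tested genes, which are not independent replicates, arrays of the 2 control labels correlated at r = -0.722 to -0.478. The Y-linked genes Eif2s3y, Kdm5d and Uty went opposite to Xist. They read -10.56 to -4.52 on the arrays labelled male control and 4.85 to 10.80 on those labelled female control. The control ratios thus run opposite to their labels by these sex-linked genes, but what each array compared is not settled. They are read as a mirrored contrast, the mean of the arrays labelled male control minus that of the arrays labelled female control, divided by 2. A positive value lies on the side where Xist is high, called the Xist side. The division by 2 gives a female minus male value only if each control array set 1 sex against the other, which the labels do not state. For the same reason no difference between IL1-beta and control arrays was formed, and the question of the series title, control against IL1-beta, could not be put to these genes.

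On the IL1-beta arrays all 8 genes were higher in liver than in the cell-line pool, and 7 of them exceeded a log2 ratio of 1 on all 4 arrays. The same held for 17.8% of all tested genes, and 37.5% were above 0 on all 4. The median of the 8 gene means was 2.94, against -0.11 over all tested genes. These are ratios to a pool, so they do not order the genes by abundance, and they are given without a test.

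Both metallothioneins were above the pool, and each varied between arrays of 1 sex. Mt1 read 2.78 and 1.92 (log2 ratio) in females given IL1-beta and 1.84 and 2.59 in males given IL1-beta. Its mean of 2.28 ± 0.47 (SD, n = 4 arrays) is a 4.87-fold excess over the pool. Mt2 read 3.79 and 2.65 in females given IL1-beta and 2.78 and 3.52 in males given IL1-beta, with a mean of 3.18 ± 0.56 (SD, n = 4), or 9.09-fold. In both genes female array 1 and male array 2 were the high ones, so the sexes overlapped.

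Mtf1 was the member that did not exceed 1 on all 4 arrays. It read 0.46 and 0.69 in females given IL1-beta and 0.92 and 0.99 in males given IL1-beta, with a mean of 0.77 ± 0.24 (SD, n = 4), or 1.70-fold. Both female arrays lay below both male arrays, a difference tested with the others below.

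The 3 importers each stood above 2.6 on every IL1-beta array. Slc39a14, which encodes ZIP14, read 2.79 and 2.76 in females given IL1-beta and 2.99 and 3.13 in males given IL1-beta (mean 2.92 ± 0.17, SD, n = 4, 7.57-fold). Slc39a4, whose human counterpart is the intestinal zinc importer mutated in acrodermatitis enteropathica, read 3.03 and 2.85 in females given IL1-beta and 2.77 and 3.17 in males given IL1-beta (mean 2.95 ± 0.18, 7.75-fold). Slc39a8 encodes ZIP8, which imports zinc and manganese. It read 3.13 and 3.14 in females given IL1-beta and 3.09 and 2.66 in males given IL1-beta (mean 3.01 ± 0.23, 8.03-fold). Slc39a14 and Slc39a8 did not overlap between the sexes, in opposite directions, and Slc39a4 overlapped.

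Both exporters were above the pool on every IL1-beta array. Slc30a1, the plasma membrane zinc exporter ZnT1 and a target of MTF-1, read 1.29 and 1.65 in females given IL1-beta and 1.20 and 1.34 in males given IL1-beta (mean 1.37 ± 0.20, SD, n = 4, 2.59-fold). Slc30a10, known in humans as a manganese exporter, read 5.30 and 7.21 in females given IL1-beta and 6.84 and 6.41 in males given IL1-beta. Its mean of 6.44 ± 0.83 (SD, n = 4), or 86.8-fold, stood at percentile 98.8 of all tested genes. The 2 Slc30a10 features differed from each other by up to 1.53 on 1 array, which is wider than its SD between arrays.

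**Figure D2:**
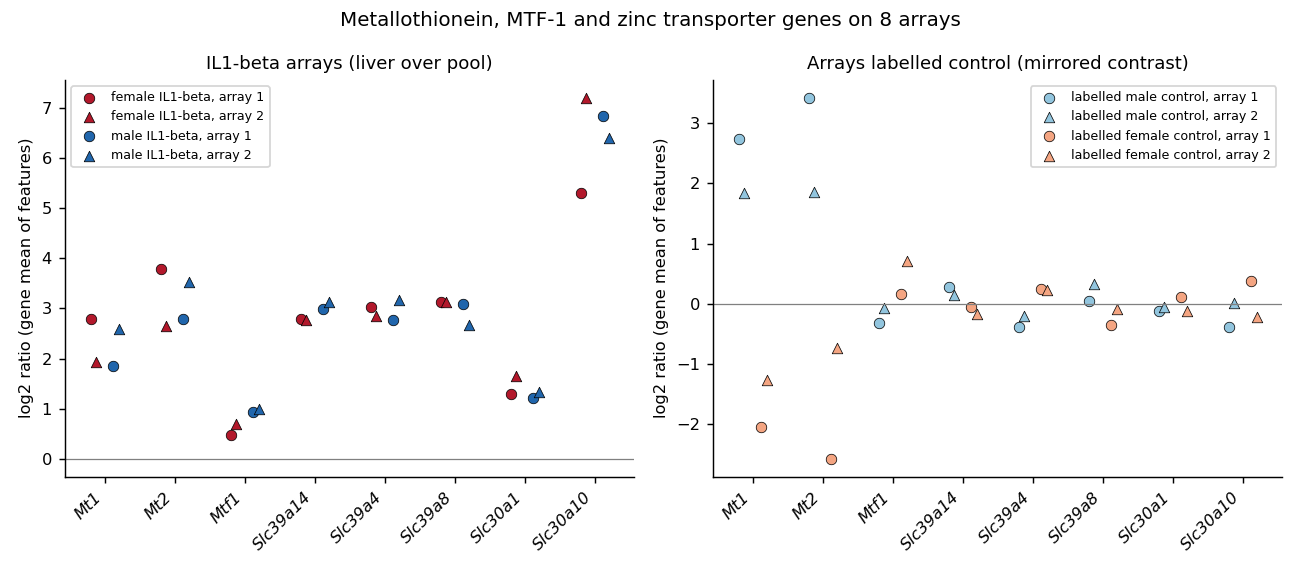
Log2 ratio (y axis, gene mean of features) of the 8 genes (x axis) on each array, 2 arrays per group, with IL1-beta arrays on the left and the mirrored control arrays on the right. All 8 genes lie above 0 on the IL1-beta arrays. On the control arrays Mt1 and Mt2 lie far from 0 with opposite signs for the 2 labels, and the other 6 genes lie between -0.39 and 0.71.

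Mt1 and Mt2 both differed on the control arrays, and they were the only members of the 8 that passed. Mt1 read 2.74 and 1.84 (log2 ratio) on the arrays labelled male control and -2.04 and -1.26 on those labelled female control. Mt2 read 3.42 and 1.85 on the arrays labelled male control and -2.57 and -0.73 on those labelled female control. The labels did not overlap in either gene, and array 1 was farther from 0 than array 2 under both labels. Mt1 lay on the Xist side by 1.97 ± 0.24 (log2, SE, n = 2 arrays per label, 3.92-fold, limma adjusted p = 0.00283). Mt2 did so by 2.15 ± 0.38 (4.42-fold, limma adjusted p = 0.0108). As labelled, female minus male, the same differences are -3.94 ± 0.47 and -4.29 ± 0.76. In this comparison 21.4% of all tested genes passed at an adjusted p of 0.05 and 12.1% passed toward the Xist side, so 2 of 8 members is close to the background. Opposite to it 9.3% of genes passed and 0 members did. At an unadjusted p under 0.05 stood 4 of 8 members, against 36.7% of genes. By size, Mt2 ranked 170 and Mt1 221 of 15346 genes.

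Both genes kept their direction in every alternative run, 31 for Mt1 and 21 for Mt2. Outside the runs that left out 1 array, both passed throughout (limma adjusted p up to 0.0229 for Mt1 and 0.0481 for Mt2). Leaving out 1 array gave log2 differences of 1.74 to 2.20 for Mt1 and 1.69 to 2.60 for Mt2. Such runs leave 1 array in a group, so only the size is given. Not all runs were separate checks. A run at a looser threshold could not fail for genes already passing, and leaving out an IL1-beta array cannot change the control difference. For Mt1 each feature fitted alone counted as a run, and 10 of these features share 1 accession. Mt2 has 1 feature, so the runs over features repeat its value. If arrays of the same number hold the same RNA they are 1 replicate, and with means of such pairs the adjusted p was 0.0229 for Mt1 and 0.0481 for Mt2 (limma, 2 pairs), where 7.08% of all genes passed. Quantile normalization, which forces 1 distribution on arrays of unlike spread, gave 3.23 for Mt1 and 3.27 for Mt2.

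The 11 features of Mt1 fell into 2 kinds. Of these, 10 share 1 RefSeq transcript accession and agreed within 0.06 to 0.37 on each array. They gave a control difference of 2.01 to 2.12 when each was fitted alone, and a mean of 2.08 over the pool on the IL1-beta arrays. The 11th carries a cDNA accession. It read 1.20 and 1.25 on the arrays labelled male control and -0.59 and -1.45 on those labelled female control, a difference of 1.12 ± 0.16 (limma adjusted p = 0.0057). On the IL1-beta arrays it read 4.62 and 4.19 in females and 4.29 and 4.38 in males, a mean of 4.37. It thus showed a smaller control difference and a higher ratio over the pool than the other 10 features of the gene. Averaging features per accession first, a setting chosen after the data were seen, gave a Mt1 control difference of 1.59 ± 0.15 and moved its ratio over the pool to 3.22. Probe sequences were not used here, so whether the 10 like features are copies of 1 probe, and whether any feature also detects Mt2, was not tested.

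**Figure D3:**
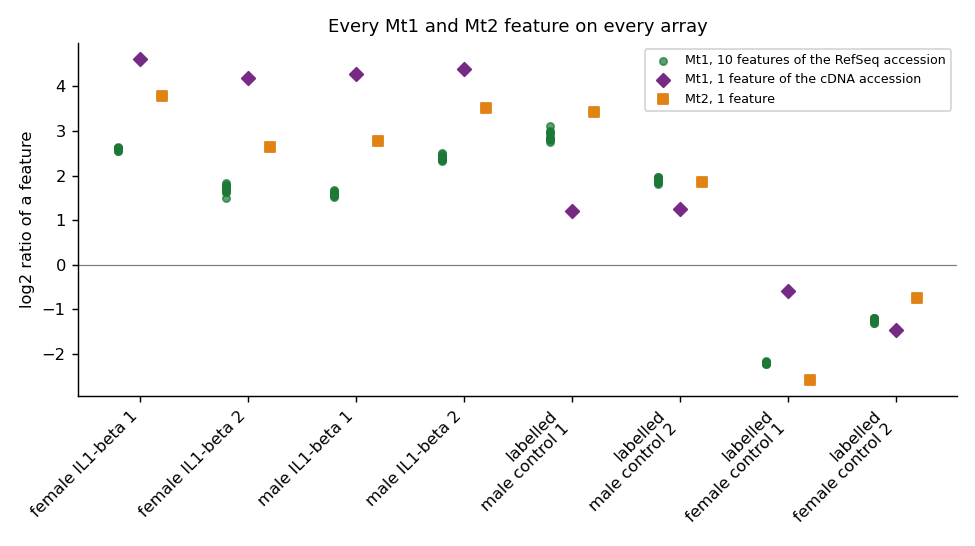
Log2 ratio (y axis) of each of the 11 Mt1 features and the Mt2 feature on each of the 8 arrays (x axis). The 10 features of 1 accession stay together on every array, while the feature of the cDNA accession lies above them on the IL1-beta arrays and nearer to 0 on 3 of the 4 control arrays.

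Markers of other cells moved on the same arrays, where 12.1% of all tested genes passed on the Xist side and 9.3% opposite. Of 6 tested adipocyte genes 6 passed on the Xist side, with list medians of 0.91 and 4.17 on the arrays labelled male control and -2.91 and -3.25 on those labelled female control. On the IL1-beta arrays the same medians were 1.16 and 0.67 in females and 0.66 and 0.62 in males, and 0 of the 6 genes passed between the sexes or had an unadjusted p under 0.05 in limma. Of the 9 genes listed, Lep and Ucp1 had an exact 0 on at least 1 array and were not tested, and Cfd was not among the named features. Between the arrays labelled male control the adipocyte median was higher on array 2. So were the hepatocyte, neutrophil, liver endothelium, bile duct, pancreatic acinar and enterocyte medians. Mt1 and Mt2 were higher on array 1. So were the medians of the Kupffer cell and macrophage, stellate cell, lymphocyte, cell cycle and erythroid lists. Of 8 tested Kupffer cell and macrophage genes 6 passed on the Xist side, with medians of 0.96 and 0.62 on the arrays labelled male control and -1.12 and -0.80 on those labelled female control. Of 8 tested stellate cell genes 5 passed on the Xist side, and of 9 lymphocyte genes 5 passed on it and 2 opposite. Of 10 tested hepatocyte genes 1 passed on the Xist side, close to the share of all genes. Also on that side were 3 of 7 neutrophil, 3 of 8 liver endothelium, 2 of 5 bile duct and 2 of 7 pancreatic acinar genes. Enterocyte and erythroid genes each had 1 of 4 on the Xist side and 1 of 4 opposite. Cell cycle genes had 1 of 14 opposite. The part of these cell types in the metallothionein difference was not tested. In whole liver, fewer cells of a type and less RNA per cell cannot be told apart.

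None of the other 6 members passed on the control arrays, and their differences lay between -0.31 and 0.20. The 5 transporters were within 0.5 of a log2 ratio of 0 on all 4 control arrays, as were 40.8% of all tested genes. Mtf1 read -0.31 and -0.06 on the arrays labelled male control and 0.16 and 0.71 on those labelled female control (-0.31 ± 0.12, limma adjusted p = 0.107). Its 2 features disagreed, with one alone at -0.54 ± 0.15 (limma adjusted p = 0.0487) and the other at -0.08 ± 0.17. Slc39a4 read -0.39 and -0.20 on the arrays labelled male control and 0.25 and 0.22 on those labelled female control (-0.27 ± 0.10, limma adjusted p = 0.113). Mtf1 and Slc39a4 thus pointed away from the Xist side, opposite to the metallothioneins, without passing. Under quantile normalization Mtf1 (-0.71, adjusted p = 0.049), Slc39a4 (-0.56, adjusted p = 0.0113) and Slc39a14 (0.35, adjusted p = 0.0423) passed in limma, where 6765 genes passed in all.

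The remaining transporters lay close to 0. Slc39a14 read 0.28 and 0.15 on the arrays labelled male control and -0.06 and -0.17 on those labelled female control (0.17 ± 0.09). Slc39a8 read 0.04 and 0.32 on the arrays labelled male control and -0.34 and -0.09 on those labelled female control (0.20 ± 0.11). Labels did not overlap in these genes, nor in Mtf1 and Slc39a4. Over all members 6 of 8 did not overlap, against 67.4% of all tested genes. Slc30a1 (-0.04 ± 0.10, 95% interval -0.28 to 0.20) and Slc30a10 (-0.13 ± 0.29, 95% interval -0.83 to 0.56) overlapped. Neither interval reaches the difference of Mt1. That of Mt1 was 1.41 to 2.53.

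**Figure D4:**
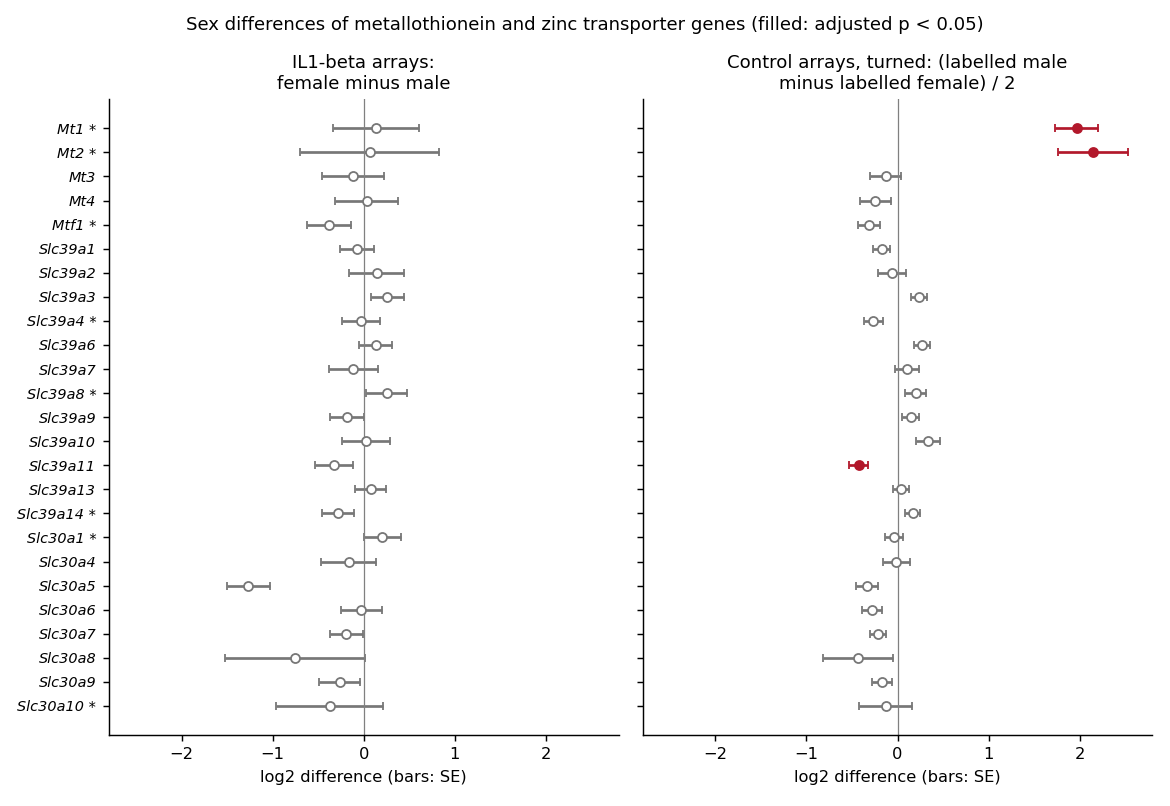
Log2 difference with SE (x axis) for the tested metallothionein, Mtf1, Slc39a and Slc30a genes (y axis, the 8 members starred), female minus male on the IL1-beta arrays (left) and turned on the control arrays (right). Filled points passed at an adjusted p of 0.05, which were Mt1, Mt2 and Slc39a11 on the control arrays and none on the IL1-beta arrays.

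Under IL1-beta no member passed between the sexes. Female minus male, Mt1 stood at 0.14 ± 0.47 (log2, SE, n = 2 arrays per sex, 95% interval -0.99 to 1.26, limma adjusted p = 0.993). Mt2 stood at 0.07 ± 0.76 (95% interval -1.75 to 1.88, limma adjusted p = 0.996). These SE take in the spread of the control arrays too. With only the IL1-beta arrays fitted, the SE was 0.40 for Mt1 and 0.46 for Mt2. Neither interval reaches the control value of its gene, 1.97 for Mt1 and 2.15 for Mt2, which have errors of their own. An adjusted p near 1 does not show that the sexes are alike at this precision.

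The other 6 members ranged from -0.38 ± 0.24 for Mtf1 to 0.25 ± 0.22 for Slc39a8, with limma adjusted p of 0.793 or more. Slc39a14 was at -0.29 ± 0.17 and Slc30a10 at -0.37 ± 0.59. Mtf1, Slc39a14 and Slc39a8 did not overlap between the sexes, 3 of 8 members, against 36.9% of all tested genes. In this comparison 0.163% of tested genes passed (0.104% higher in females and 0.0586% lower), 8.28% had an unadjusted p under 0.05 in limma, and 0 members did. Leaving out 1 array turned the sign of Mt1 (-0.29 to 0.57) and Mt2 (-0.50 to 0.64).

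The difference between the 2 sex differences was tested directly, the value under IL1-beta minus the turned control value. Mt1 stood at -1.83 ± 0.53 (limma unadjusted p = 0.0109, adjusted p = 0.327) and Mt2 at -2.08 ± 0.86 (limma unadjusted p = 0.0459, adjusted p = 0.475). No member passed, against 0.209% of tested genes (0.0261% above 0 and 0.182% below). These 2 of 8 members had an unadjusted p under 0.05, as did 10.3% of genes. Mt1 and Mt2 had the largest values of the 8 members here, and the other 6 lay between -0.45 and 0.24. Over its alternatives the adjusted p of Mt1 ranged from 0.0142 to 0.716, and it passed only after quantile normalization (-3.14 ± 0.39). That the 2 comparisons differ was thus not shown for either metallothionein.

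Other genes of the families were counted on the control arrays against the background of that comparison, 12.1% of all tested genes on the Xist side and 9.3% opposite. Of 4 metallothionein genes tested, Mt1 and Mt2 passed on the control arrays, and Mt3 (-0.13 ± 0.17) and Mt4 (-0.24 ± 0.17) did not. Mt3, best known from brain, read 2.30 and 2.10 in females given IL1-beta and 2.85 and 1.78 in males given IL1-beta. Mt4, best known from stratified epithelia, read -2.05 and -1.25 in females given IL1-beta and -1.40 and -1.97 in males given IL1-beta. Mt4 was thus the metallothionein below the pool.

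Of 12 tested Slc39a genes 1 passed on the control arrays, opposite to the Xist side, and 5 had an unadjusted p under 0.05. It was Slc39a11, which encodes ZIP11, with -0.05 and -0.40 on the arrays labelled male control and 0.46 and 0.80 on those labelled female control (-0.43 ± 0.11, limma adjusted p = 0.0315). Of 8 tested Slc30a genes 0 passed in limma, and 3 had an unadjusted p under 0.05. Over all tested genes 36.7% had one. The smallest p was that of Slc30a5, the ZnT5 transporter of the secretory pathway, at -0.34 ± 0.12 (limma adjusted p = 0.0863). List medians were 0.13 for Slc39a and -0.19 for Slc30a genes, against -0.02 over all tested genes. Slc30a5 also had the smallest p of its family under IL1-beta. It read -0.18 and -0.42 in females given IL1-beta and 0.82 and 1.12 in males given IL1-beta (-1.27 ± 0.24, limma adjusted p = 0.164).

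Over the pool the zinc transporter families went both ways. Of the 12 tested Slc39a genes 4 were above a log2 ratio of 1 on all IL1-beta arrays and 3 below -1. Over all tested genes 2735 of 15346 (17.8%) were above 1 on all 4 arrays and 2907 below -1. With so few genes per family nothing is read from the counts. The 4 were Slc39a14, Slc39a4, Slc39a8 and Slc39a2 (mean 2.16), and the 3 were Slc39a6 (-3.44), Slc39a10 (-2.89) and Slc39a3 (-1.36). Slc39a13 was at -1.05 with 1 array at -0.99. Of the 8 tested Slc30a genes 2 were above 1, Slc30a10 and Slc30a1, and Slc30a4 was below -1.

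Pathways joined to these genes were counted on the control arrays, where 21.4% of all tested genes passed (12.1% on the Xist side and 9.3% opposite). Of 7 tested MTF-1 targets 2 passed, and they are Mt1 and Mt2, already given above. The list median of 0.33 is the value of Slc39a10. The list was not split by whether MTF-1 raises or lowers a gene, so no direction is read from this median. Of 9 manganese handling genes and of 14 copper handling genes 0 passed in limma, with medians of 0.00 and 0.09. Against 36.7% of all tested genes, 1 of 9 manganese and 6 of 14 copper handling genes had an unadjusted p under 0.05 in limma. Their smallest p values belonged to Slc40a1, the iron exporter ferroportin (0.39 ± 0.15, limma adjusted p = 0.111), and to Atox1, a copper chaperone (-0.31 ± 0.10, limma adjusted p = 0.0677). Of 9 metal and oxidative stress genes 2 passed opposite to the Xist side, Osgin1 (-0.38 ± 0.09) and the thioredoxin reductase Txnrd1 (-0.50 ± 0.12).

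Of 11 tested glucocorticoid-induced liver genes 3 passed on the Xist side and 2 opposite (median 0.06), against the same 12.1% and 9.3% of all genes. Fkbp5, a co-chaperone of the glucocorticoid receptor, read 1.03 and 1.29 on the arrays labelled male control and -1.38 and -1.41 on those labelled female control (1.28 ± 0.15, limma adjusted p = 0.00266). Dusp1, a MAP kinase phosphatase, went the other way (-1.20 ± 0.19, limma adjusted p = 0.00732). Of 19 acute phase genes of the IL-6 and STAT3 list 3 lay on the Xist side and 1 opposite (median 0.01), among them Itih4 (0.80 ± 0.09) and the endotoxin-binding protein Lbp (0.75 ± 0.09). Under IL1-beta no gene of these lists passed in limma, against 0.163% of all tested genes. In limma 3 of 11 glucocorticoid-induced, 3 of 19 acute phase and 1 of 9 stress genes had an unadjusted p under 0.05. Over all tested genes 8.28% had one. The smallest p values of these lists belonged to Tsc22d3, a glucocorticoid-induced leucine zipper protein, to Fgb, the fibrinogen beta chain, and to Hmox1, the inducible heme oxygenase. Female minus male, Tsc22d3 stood at 1.11 ± 0.19 (limma adjusted p = 0.129), Fgb at -0.75 (limma adjusted p = 0.334) and Hmox1 at -2.32 ± 0.68 (limma adjusted p = 0.374).

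Genes near the metallothionein cluster were read in the same comparison. RefSeq places 19 genes within 250 kb of Mt1, and 7 besides Mt1 and Mt2 were tested. Of these 0 passed on the Xist side and 1 opposite, against 12.1% and 9.3% of all tested genes, so with 7 genes nothing is read from the counts. The 1 was Ogfod1, a ribosomal prolyl hydroxylase (-0.63 ± 0.12, limma adjusted p = 0.0144). The others ranged up to 0.49 ± 0.18 for Bbs2, a subunit of the BBSome of cilia. Nup93, a nuclear pore gene and the nearest tested gene beyond Mt1, stood at 0.09 ± 0.13.

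**Figure D5:**
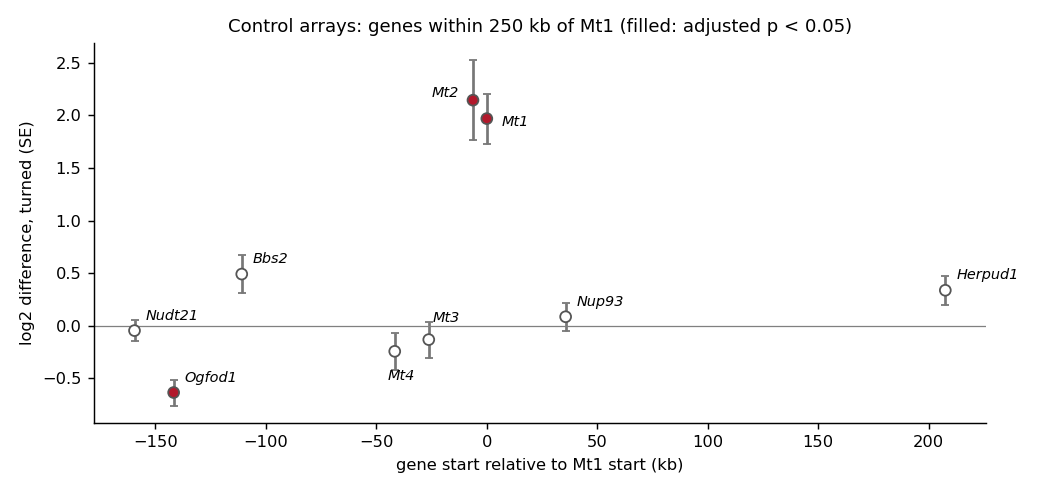
Turned control difference with SE (y axis, log2) of the tested genes within 250 kb of Mt1, by the distance of their start from that of Mt1 (x axis, kb). Mt1 and Mt2 lie at 1.97 and 2.15, and the 7 other genes between -0.63 and 0.49.

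The genes whose pattern over the 8 arrays was most like the mean of Mt1 and Mt2 were Nnmt, Higd1b, Chil1, Dio3 and Gbp2. Likeness was measured as the root mean square difference in log2 ratio over the 8 arrays, which was 0.534 for Nnmt and 0.711 for Gbp2. Pearson's r, a description over arrays that share the mirrored contrast, was 0.944 to 0.968. Dio3 encodes a deiodinase that inactivates thyroid hormone, and Gbp2 an interferon-induced GTPase. Nnmt, which encodes nicotinamide N-methyltransferase, read 3.39 and 3.27 in females given IL1-beta and 2.98 and 2.79 in males given IL1-beta. It read 2.51 and 1.90 on the arrays labelled male control and -2.18 and -1.67 on those labelled female control. Between Mt1 and Mt2 themselves the difference was 0.734 with r = 0.987. Mt2 ranked 14 among the genes nearest to Mt1, and Mt1 ranked 2 among those nearest to Mt2.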

How the data were processed

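The authors deposited 1 value per feature and array, a log ratio of the 2 channels, read here as log10. The submitters' processing notes name Agilent Feature Extraction. No source used here gives the correction of background and dyes, the log base or the ratio direction. The log10 unit was judged from the range of the values, and signal over background is unknown. The table has 45018 features per array. Of these 33653 carry 1 gene symbol, 56 several and 11309 none, by GEO's platform annotation.

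The deposited log10 values, times 3.32, are the log2 ratios printed. An exact 0 (4646 to 10324 per array) was taken as no measurement. Features with 1 symbol and a value on all 8 arrays (26218) were averaged into 15346 genes. Array medians over these genes lay between -0.14 and 0.01, and no array was rescaled. Group means were fitted in limma 3.58.1 (R 4.3.3) with eBayes (4 residual and 2.88 prior degrees of freedom), all 4 groups sharing 1 spread. Two-sided p-values were adjusted by the Benjamini-Hochberg method across the 15346 genes, and calls were made at 0.05. The fit was tested on simulated data.

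The 8 members, the lists and the mirrored contrast were chosen with earlier results of these data known. Named genes are all members, per list the 2 passing genes with the smallest p (or, where none passed, the 1 with the smallest p), the 5 genes most like Mt1 and Mt2, genes near Mt1, and single genes chosen after their values were seen (Slc39a2, Slc39a3, Slc39a6, Slc39a10, Slc39a13, Slc30a4, Mt4, Bbs2, Nup93). Promoter windows and coordinates are RefSeq's for GRCm38.p6. Alternatives were other array scalings, other rules for zeros and features, other variance settings, a replicate block, pair means, fits of the compared groups, another threshold, and leaving out each array.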

Additional observations from a re-analysis of the deposited data

How the results depend on the processing

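The ratio over the pool kept 7 of 8 genes above 1 under all 7 alternatives, but most of these runs could not change the count. A gene above 1 on every array stays so when 1 array is left out, and Mtf1 was below 1 on every array. No member feature held an exact 0, so keeping zeros changed nothing. Averaging per accession could change Mt1 only. Over all comparisons 550 member values counted as unchanged, 5 gained a call and 25 turned sign, none of them a called value. Unchanged means the same direction and call. For the ratio over the pool, which has no call, it means a move smaller than the SD between arrays. The count includes the threshold of 0.10, where the value itself cannot change. The ratio of Mt1 over the pool moved to 3.22 with features averaged per accession. Counts over all genes moved more. Under quantile normalization, which forces 1 distribution on the arrays, 5 genes passed between the sexes under IL1-beta (25 as reported), 6765 on the control arrays (3284 as reported) and 628 in the difference between the 2 (32 as reported). With only the compared groups the counts were 10 under IL1-beta and 2058 on the control arrays. With means of same-number control pairs they were 1087 on the control arrays and 9 in the difference. At an adjusted p of 0.10 they were 58 under IL1-beta and 75 in the difference. With each feature fitted on its own, 59 features passed under IL1-beta and 19 in the difference. Keeping exact zeros as values left 11 genes in the difference.

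Leaving out 1 array gave 7 to 23 genes under IL1-beta (10 without female array 1, 14 without female array 2, 7 without male array 1, 10 without male array 2). It gave 1516 to 3130 on the control arrays (1516 without male control array 1, 2077 without male control array 2, 2013 without female control array 1, 1728 without female control array 2). In the difference it gave 0 to 27, with 0 without any 1 of the IL1-beta arrays, 6 without female control array 1 and 10 without female control array 2.

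The sign of small differences turned. Under IL1-beta, leaving out 1 array gave -0.29 to 0.57 for Mt1, -0.50 to 0.64 for Mt2, -0.23 to 0.17 for Slc39a4 and -1.33 to 0.58 for Slc30a10, which stood at 0.32 by 1 of its features. On the control arrays Slc30a1 stood at 0.073 by the feature with the higher ratio and at -0.096 to 0.016 without 1 array, and Slc30a10 at -0.28 to 0.016 without 1 array. In the difference between the 2 comparisons, quantile normalization gave 0.47 for Mtf1, -0.28 for Slc39a8 and 0.16 for Slc30a10. Single features gave 0.50 for Mtf1, -0.000897 for Slc39a8 (the feature with the higher ratio) and 0.54 for Slc30a10. Leaving out 1 array gave -0.20 to 0.066 for Mtf1, -0.16 to 0.27 for Slc39a8 and -1.20 to 0.71 for Slc30a10. The cause was not tested.

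Deviations of same-number arrays from their group means correlated across genes at r = -0.407 between the IL1-beta groups and -0.430 between the control labels. With 1 control label turned, same-number control arrays therefore deviate together, and they also mirror each other more closely (r = -0.722 and -0.592) than arrays of unlike number (-0.519 and -0.478). No label states a pairing, so the pairing of the control arrays is a hint from the data, and the means of same-number pairs above are the setting that takes it up. With the replicate block 18 genes passed under IL1-beta, 2433 on the control arrays and 0 in the difference, and Mt1 and Mt2 passed on the control arrays with limma adjusted p of 0.00791 and 0.0233. With crossed numbers 17 and 3887 genes passed in fits of the IL1-beta and of the control arrays alone, a setting added after the data were seen. Precision is bounded by having 2 arrays in each group, and signal over background is unknown.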
